A study of Mus musculus with 42 samples.

Results

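The nuclear oxidative phosphorylation (OXPHOS) genes are the nuclear-encoded subunit genes of the respiratory chain and the ATP synthase. They were taken by symbol (Nduf followed by A, B, C, S or V and a number, Uqcr, Cox4 to Cox8 with a letter a, b or c, Sdha to Sdhd, and Atp5), leaving out pseudogenes and assembly factors named Ndufaf. This gave 81 genes, 80 of the 26323 genes with a symbol in the CD1 table and 81 of the 35972 in the C57 table. Atp5sl was present in the C57 table only. Cox8c, the testis form of the smallest complex IV subunit, was the 1 gene whose level was too low to test in both tables.

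In the inner mitochondrial membrane, complex I (35 of the genes) takes electrons from NADH and complex II (4 genes) takes them from succinate. Complex III (8 genes) passes them through cytochrome c to complex IV (17 genes), which reduces oxygen. Complexes I, III and IV pump protons, and complex V (15 genes) lets them flow back to make ATP. Atp5s and Atp5sl carry the ATP synthase name but are accessory factors rather than subunits, and stand apart here as 2 other genes. Complexes I, III, IV and V also need subunits encoded by mitochondrial DNA.

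RNA-seq was made from mouse lung mesenchyme, the fibroblast-like cells of the lung, and covers 21 libraries. CD1 mice carried the Col1a1-GFP reporter, and GFP+ cells negative for CD45, EpCAM and CD31 were either lysed directly after the sort (CD1 sham, 3 libraries) or cultured for 5 days in DMEM with 10% serum on collagen-coated silicone gels of 0.2 kPa or 32 kPa (3 libraries each). Cells of C57BL/6 mice, traced by Col1a2 lineage and negative for CD45 and EpCAM, came from sham-treated mice or mice taken 14 or 56 days after bleomycin, an agent that injures the lung and causes fibrosis (4 libraries each). The labels give neither the ages of the mice nor whether libraries came from separate animals, so p-values measure the spread between libraries, which may be technical. The GFP reporter marks cells with an active Col1a1 promoter and the lineage trace marks cells that have used Col1a2, so the sorted cells of the 2 strains are not the same selection. The series compared cultured with directly sorted mesenchyme, and injured with uninjured lung.

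Libraries held 34313376 to 67721210 reads in the CD1 table and 14288605 to 51288435 in the C57 table. Levels are given as CPM, the reads on a gene scaled so that all reads on genes in a library sum to the same fixed total, and fold changes as differences of log2(value + 1) after rescaling, with their standard error (SE). A gene was called changed at a Benjamini-Hochberg adjusted p under 0.05 in limma, over all 18488 (CD1) or 21134 (C57) genes tested. In the CD1 sham libraries the 10 mesenchyme markers summed to 58338 to 69394 CPM, against 116 to 232 CPM for 22 leukocyte markers and 502 to 526 CPM for 18 endothelial markers. The 13 subunit genes of mitochondrial DNA were at 0 reads in all 9 CD1 libraries, so only the nuclear side of the chain can be followed there. C57 sham replicates 1 and 2 and day 56 replicates 2 and 3 had 16563 to 17561 genes detected, while the other 8 C57 libraries had 19384 to 21381.

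RefSeq promoter windows, from 250 bases before to 50 bases after the start, were matched for 69 of the 81 genes (75 windows). The bases before the start are shown for 4 of them because their accessibility in culture is described below and because they show the motifs known from this gene class. NRF1, ETS factors and YY1 are transcription factors known to bind many promoters of respiratory genes. Capitals mark matches on either strand to the NRF1 motif (GCGCA, any base, then GCGC) or the ETS motif CCGGAAG. Each sequence is written 5′ to 3′ on the strand of the gene, from RefSeq windows on mouse build GRCm38.p6 (mm10). Cox5a is shown as a gene with no match whose RNA rose strongly.
Sdha, flavoprotein of complex II, chr13:74350241-74350390, minus strand: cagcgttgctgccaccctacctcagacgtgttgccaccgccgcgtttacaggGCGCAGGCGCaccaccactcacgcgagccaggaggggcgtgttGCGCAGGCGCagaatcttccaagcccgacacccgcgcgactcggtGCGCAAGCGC
Atp5g2, c-ring subunit of complex V, chr15:102671048-102671197, minus strand: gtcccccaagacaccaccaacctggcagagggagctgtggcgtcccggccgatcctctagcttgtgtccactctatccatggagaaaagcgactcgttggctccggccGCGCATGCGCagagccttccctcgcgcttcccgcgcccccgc
Cox6a1, ubiquitous complex IV subunit, chr5:115348959-115349108, minus strand: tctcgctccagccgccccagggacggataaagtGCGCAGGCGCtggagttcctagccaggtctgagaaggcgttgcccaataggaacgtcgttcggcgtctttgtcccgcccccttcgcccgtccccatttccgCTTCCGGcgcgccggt
Cox5a, ubiquitous complex IV subunit, chr9:57521082-57521231, plus strand: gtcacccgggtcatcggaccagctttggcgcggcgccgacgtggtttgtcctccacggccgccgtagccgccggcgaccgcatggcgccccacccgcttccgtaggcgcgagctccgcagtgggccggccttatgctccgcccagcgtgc

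Over the whole windows, the NRF1 motif was present for 24.6% of the 69 genes and for 5.19% of all 27025 genes with a window. The ETS motif was present for 23.2% against 9.93%, and the YY1 motif AAGATGGCG for 11.6% against 1.64%. The estrogen-related receptor motif TCAAGGTCA was present for 2.9% against 0.466%. CCAAT (44.9% against 41.1%) and the GC box GGGCGG (40.6% against 38.2%) were about as common in both, and TATAAA was present for 10.1% against 15.7%. These letter matches were counted on both strands. They describe sequence and show no binding.

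At 0.2 kPa, 69 of the 79 genes tested rose against sham and 5 fell. Among all genes tested, 31.9% were higher and 39.2% lower (71.1% in either direction). Sham and cultured libraries did not overlap for 74 of the 79 (76.4% of all genes). The median log2 fold change was 1.20 for the nuclear OXPHOS genes and -0.22 for all genes. At 32 kPa, 70 rose and 5 fell, against 32.4% of all genes higher and 41.0% lower (73.4% in either direction), with medians of 1.43 and -0.26. Both comparisons share the CD1 sham libraries. The summed level was 2949, 3800 and 3091 CPM in the sham libraries, 8624, 8600 and 9029 CPM at 0.2 kPa, and 10146, 10007 and 8247 CPM at 32 kPa. All 6 cultured libraries lay above all 3 sham libraries, and at 32 kPa the groups did not overlap for 75 of the 79 genes (73.1% of all genes). These are shares of a library. More cells that use a gene, more of its RNA per cell and less RNA of other genes thus cannot be told apart. Markers of several other cell types were lower in culture. Epithelial markers summed to 155 to 408 CPM in sham and 5.22 to 7.19 CPM in culture, leukocyte markers to 116 to 232 and 17.5 to 28.9 CPM, and brown adipocyte markers, a cell type rich in mitochondria, to 239 to 315 and 16.4 to 26.8 CPM. Of the 10 brown adipocyte markers, 7 were lower and 1, Fabp4, was higher at 0.2 kPa. That list holds Cox8b and Cox7a1, which are also nuclear OXPHOS genes. The part of these cell types in the result was not tested. Sham replicate 2 stood apart from the other 2 sham libraries, with smooth muscle and pericyte markers at 1417 CPM against 4473 and 4996 CPM. These markers summed to 4225 to 5256 CPM in culture, which overlaps sham, but 12 of the 17 were lower and 3 higher at 0.2 kPa. Their median log2 fold change was -3.31. Without sham replicate 2, 70 nuclear OXPHOS genes rose and 5 fell at 0.2 kPa, where 32.1% of all genes rose and 38.5% fell.

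**Figure D1:**
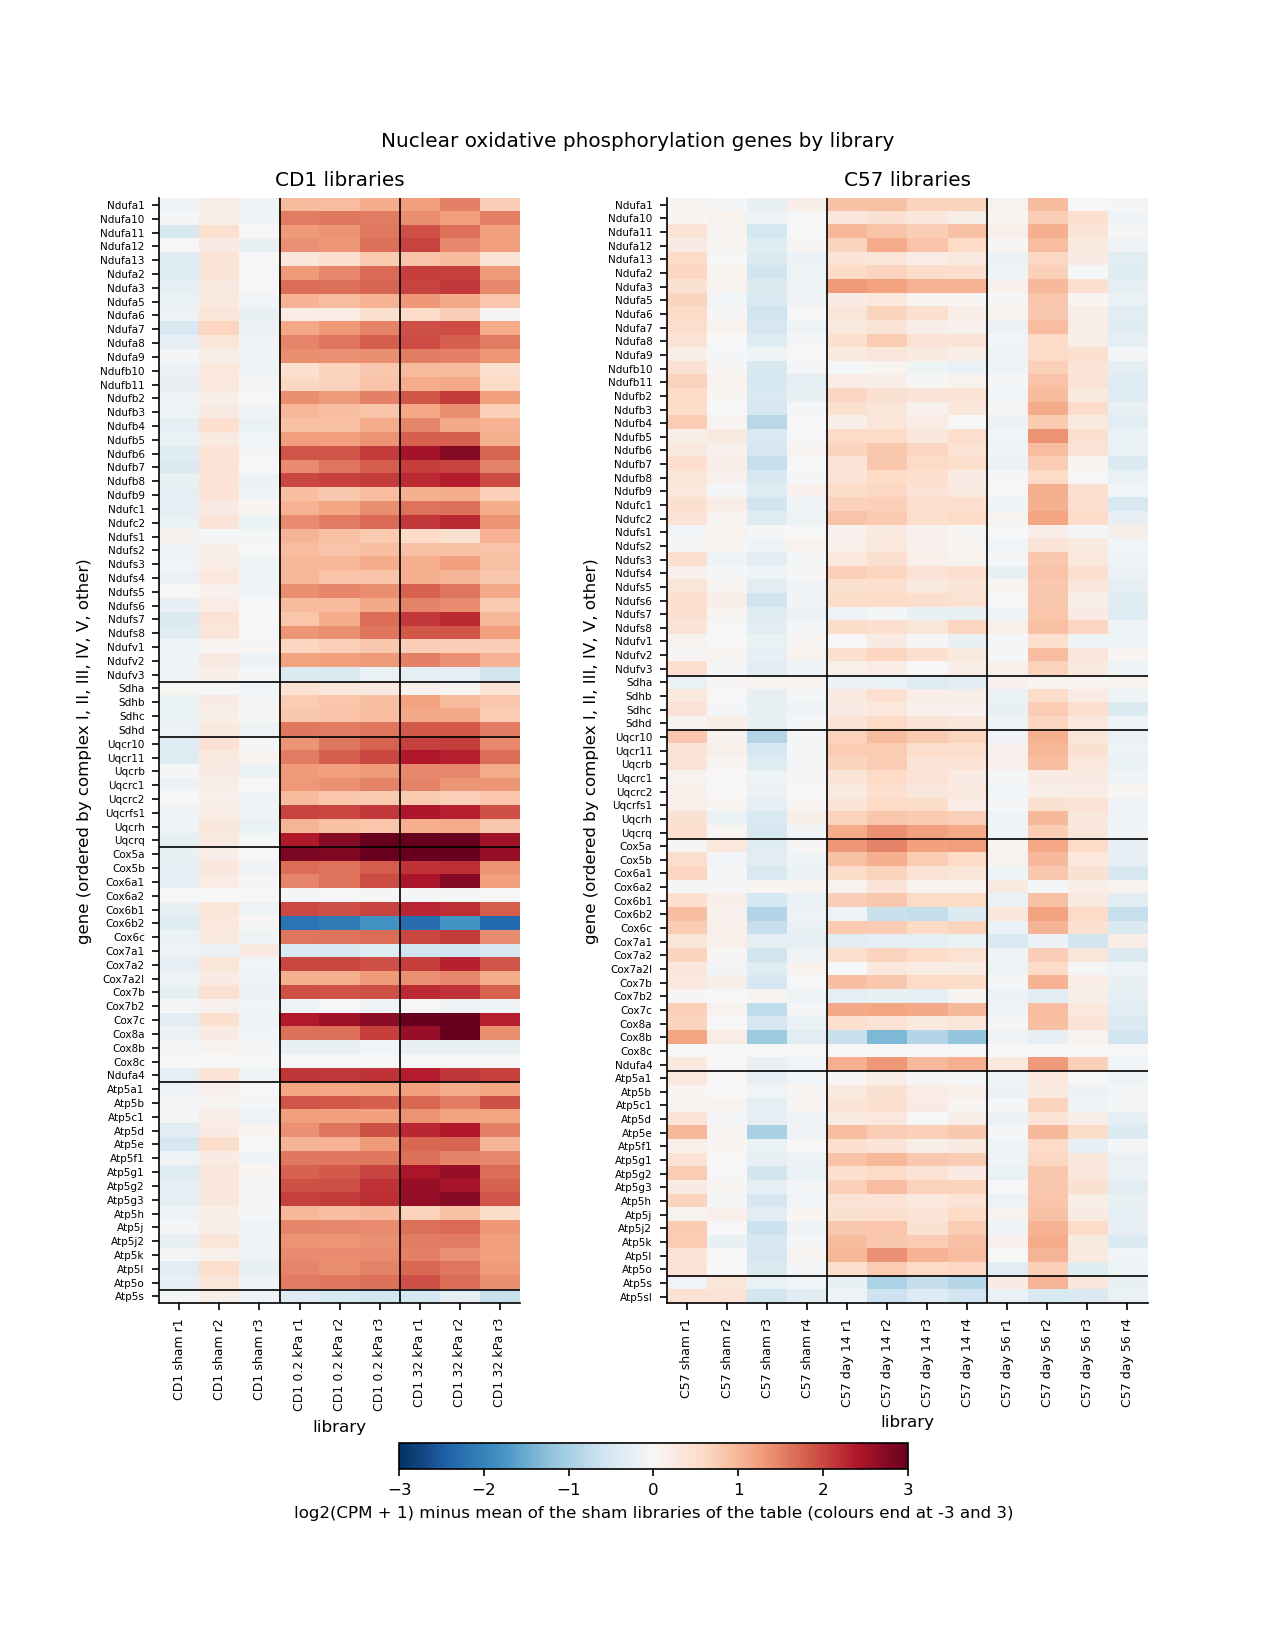
Level of each nuclear OXPHOS gene (rows, ordered by complex) in each library (columns), as log2(CPM + 1) minus the mean of the sham libraries of the same table. Red covers most rows of the 6 cultured libraries, Cox6b2 stands out in blue there, and among the C57 libraries day 56 replicate 2 is red over most rows.

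The share of reads on other short transcripts moved with culture. Genes whose longest annotated transcript is under 1000 bases, the nuclear OXPHOS genes left out, took 2.44, 3.47 and 2.67% of the reads in the sham libraries. They took 6.46, 6.66 and 7.18% at 0.2 kPa, and 8.55, 8.58 and 6.17% at 32 kPa. Sham and culture do not overlap. Sham replicate 2 had the highest and 32 kPa replicate 3 the lowest share of its group, as they had for the summed OXPHOS level. In a fit with this share as a term, chosen after seeing the data, 7 of the 79 genes were higher and 15 lower at 0.2 kPa, with a median of -0.29. Over all genes that fit gave 19.0% higher and 20.9% lower, with a median of -0.15. At 32 kPa it gave 4 higher and 11 lower, with a median of -0.23, against 16.5% and 17.7% of all genes and a median of -0.16. Because sham and cultured libraries do not overlap in this share, culture and the share cannot be told apart.

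Split by transcript length, the nuclear OXPHOS genes had a positive median in each class at 0.2 kPa. The 46 genes under 1000 bases had a median log2 fold change of 1.27, against 0.43 for the 1809 other genes of that length. The 25 genes of 1000 to 2000 bases had a median of 1.10, against 0.11 for 3774 others. The 6 genes of 2000 to 4000 bases had a median of 0.84, against -0.18 for 6979 others. The 2 genes of 4000 bases or more had a median of 1.52, against -0.61 for 5344 others. The OXPHOS median was above that of other genes in each of the 4 classes. These classes use the longest annotated transcript, which need not be the form expressed. The 2 genes of the longest class, Atp5g1 (4715 bases) and Ndufb2 (4371 bases), may thus be misplaced, as may others.

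**Figure D2:**
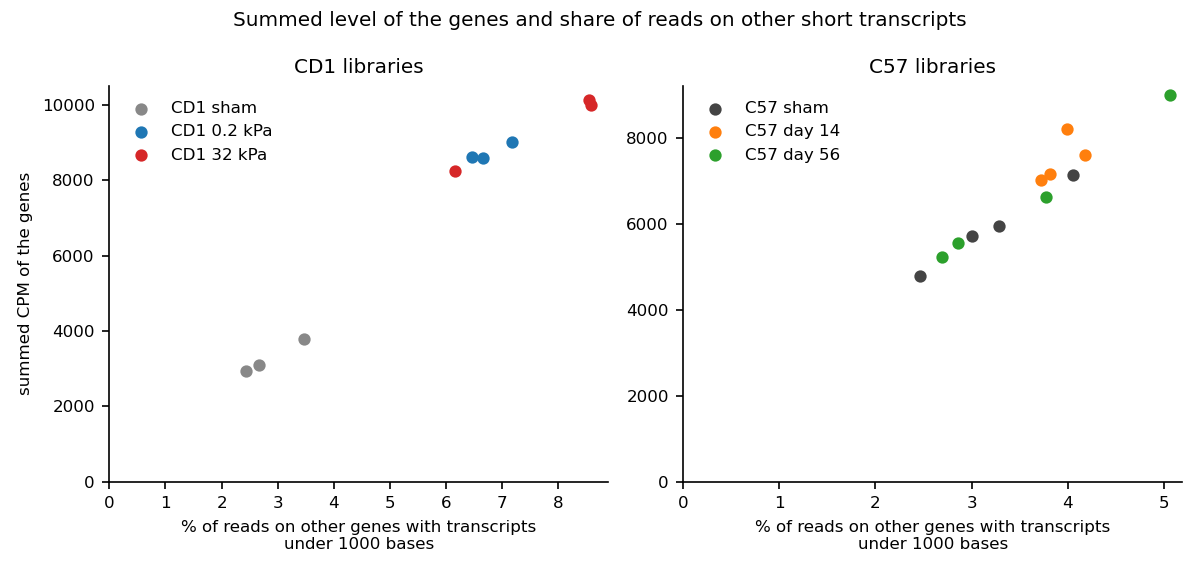
Summed CPM of the nuclear OXPHOS genes (y axis) against the percent of reads on other genes with transcripts under 1000 bases (x axis), 1 point per library. Sham libraries of CD1 lie at 2.44 to 3.47% and cultured libraries at 6.17 to 8.58%, with no overlap, while the 3 C57 groups overlap along the x axis.

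Complex I rose in culture in both its core and its accessory part. All 7 core subunits, which carry the flavin and iron-sulphur clusters, rose at 0.2 kPa with a median log2 fold change of 0.87. Of the 28 accessory subunits, 25 rose and 1 fell, with a median of 1.14. Ndufb8, an accessory subunit of the membrane arm, was at 20.6, 32.3 and 21.3 CPM in sham, 99.3, 104 and 106 CPM at 0.2 kPa, and 118, 127 and 97.0 CPM at 32 kPa. Its cultured libraries lay above every sham library, and it rose by 1.89 (SE 0.18, limma adjusted p = 2.9e-06) and 2.10. Ndufb6, a neighbouring membrane-arm subunit, rose by 1.85 and 2.30, and Ndufa3 by 1.55 and 1.81.

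The subunit that binds FMN and NADH, Ndufv1, rose by less. It was at 52.4, 60.1 and 58.6 CPM in sham, 90.2, 94.4 and 101 CPM at 0.2 kPa, and 94.9, 95.8 and 95.3 CPM at 32 kPa. The log2 fold change was 0.54 (SE 0.09, limma adjusted p = 0.00038) at 0.2 kPa. Its small partner subunit Ndufv3 went the other way, with 26.6, 34.4 and 28.6 CPM in sham, 21.9, 21.6 and 25.7 CPM at 0.2 kPa, and 23.9, 25 and 19.1 CPM at 32 kPa. Ndufv3 fell by 0.57 (SE 0.15, limma adjusted p = 0.0068) and by 0.52. Ndufa6 was not called at either stiffness, and Ndufa13 was called at 32 kPa only. Between the stiffnesses the Ndufa13 difference was 0.27 (SE 0.22, limma adjusted p = 0.79).

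Complex II was uneven. Sdhd, 1 of the 2 membrane anchors, was at 44.0, 60.6 and 44.1 CPM in sham, 148, 147 and 152 CPM at 0.2 kPa, and 178, 177 and 144 CPM at 32 kPa. It rose by 1.40 (SE 0.15, limma adjusted p = 7.6e-06) and 1.63. Sdhb, the iron-sulphur subunit, rose by 0.65 and 0.88, and Sdhc, the other anchor, was also called at both stiffnesses. Sdha, the catalytic flavoprotein, was at 182, 176 and 166 CPM in sham, 239, 219 and 212 CPM at 0.2 kPa, and 191, 185 and 230 CPM at 32 kPa. The Sdha difference was 0.16 (SE 0.10, limma adjusted p = 0.18) at 0.2 kPa and 0.08 (adjusted p = 0.48) at 32 kPa, so it was not called in either.

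All 8 complex III genes rose. Uqcrq, a small subunit, had the largest rise among the nuclear OXPHOS genes at both stiffnesses, from 4.80, 7.53 and 5.85 CPM in sham to 35.7, 45.3 and 69.9 CPM at 0.2 kPa and 96.3, 109 and 39.7 CPM at 32 kPa. The groups did not overlap with sham, and the log2 fold changes were 2.82 (SE 0.38, limma adjusted p = 5.1e-05) and 3.52 (adjusted p = 8.2e-06). The Rieske iron-sulphur protein Uqcrfs1, which hands electrons on within the complex, rose by 1.89 and 2.15. Uqcrc1, a core subunit, was at 61.4, 78.7 and 69.0 CPM in sham, 173, 180 and 196 CPM at 0.2 kPa, and 197, 175 and 176 CPM at 32 kPa, a rise of 1.20 and 1.27.

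Complex IV split by isoform. All 11 ubiquitous subunits rose, with medians of 1.74 at 0.2 kPa and 2.0 at 32 kPa. Of the 5 isoforms of muscle, testis and other restricted tissues that could be tested, 3 fell at each stiffness and none rose. Cox5a, a ubiquitous subunit, was at 14.6, 19.7 and 17.3 CPM in sham, 127, 124 and 140 CPM at 0.2 kPa, and 201, 249 and 111 CPM at 32 kPa. It rose by 2.73 (SE 0.26, limma adjusted p = 3.4e-06) and 3.24. Cox7c rose by 2.41 and 2.79, and Ndufa4, now assigned to complex IV, by 1.98 and 2.08. In each of these genes the 3 sham libraries were the lowest.

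Cox6b2, known as the testis isoform of the Cox6b subunit, was at 5.17, 8.98 and 7.19 CPM in sham, 0.712, 0.833 and 1.27 CPM at 0.2 kPa, and 0.641, 1.28 and 0.584 CPM at 32 kPa. It fell by 3.10 (SE 0.38, limma adjusted p = 2.4e-05) and by 3.24, while its ubiquitous counterpart Cox6b1 rose by 1.80 and 2.0. Cox7a1, the heart and skeletal muscle form, was at 0.529, 0.458 and 0.966 CPM in sham and at 0.0825 to 0.279 CPM in the 6 cultured libraries, and was called lower at both stiffnesses. Cox8b, another muscle form, was at 0.106, 0.251 and 0.131 CPM in sham and at 0 in 5 of the 6 cultured libraries. At these levels few reads decide the value, and at 0.2 kPa the Cox8b call was lost with edgeR (adjusted p = 0.10) and DESeq2 (adjusted p = 0.24). Summed striated muscle markers were at 116, 32.9 and 145 CPM in sham and 65.4 to 80.6 CPM in culture, which overlaps sham. Of the 15 markers tested, however, 9 were lower and 3 higher at each stiffness. Over all genes 39.2% were lower and 31.9% higher at 0.2 kPa, and 41.0% and 32.4% at 32 kPa. The median log2 fold change of the striated muscle list was -1.995 at 0.2 kPa and -2.67 at 32 kPa. The part of muscle cells in the falls of Cox6b2, Cox7a1 and Cox8b was not tested.

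All 15 complex V genes rose. Atp5b, the catalytic beta subunit, had the highest mean level of the nuclear OXPHOS genes per length in both tables (220 ± 9.47 RPKM in CD1 sham, SD, n = 3). RPKM are CPM divided by the transcript length in kilobases. Its CPM were 412, 442 and 409 in sham, 1563, 1513 and 1458 at 0.2 kPa, and 1400, 1228 and 1595 at 32 kPa. It rose by 1.64 (SE 0.11, limma adjusted p = 3.0e-07) and 1.61. The 3 genes of the proton-carrying c ring had the highest median of the complex, 1.84 at 0.2 kPa and 2.21 at 32 kPa. Atp5g3, which encodes the same mature c subunit as Atp5g1 and Atp5g2, was at 56, 87.6 and 66.4 CPM in sham, 289, 298 and 325 CPM at 0.2 kPa, and 435, 461 and 258 CPM at 32 kPa. Atp5s, the accessory factor, fell by 0.76 (SE 0.20, limma adjusted p = 0.0049) and by 0.72.

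**Figure D3:**
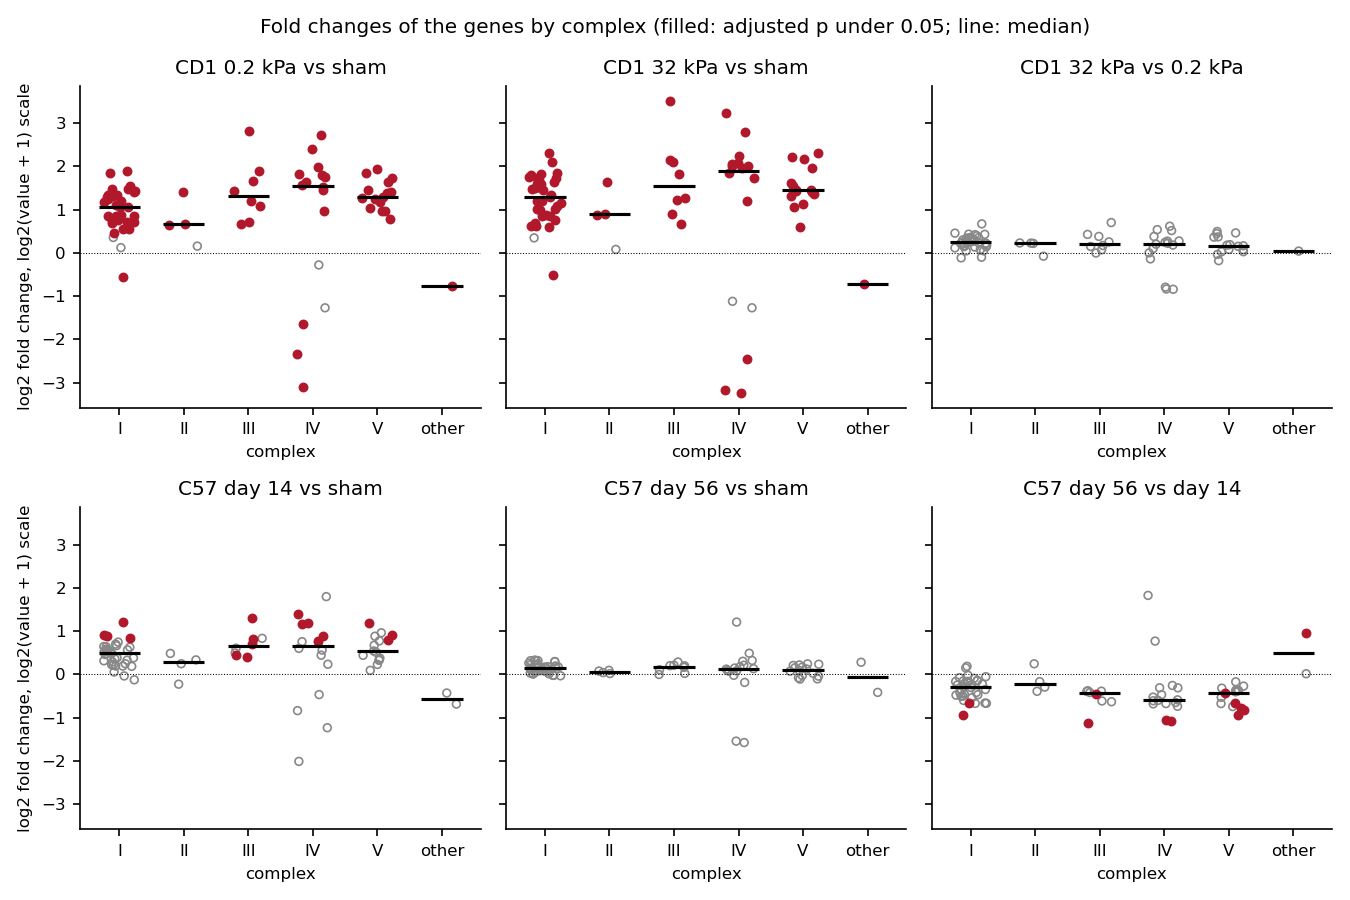
Log2 fold change of each nuclear OXPHOS gene (points) by complex (x axis) in the 6 comparisons. Filled points passed an adjusted p under 0.05 and lines are medians, which lie at 0.66 to 1.54 for complexes I to V at 0.2 kPa and at 0.29 to 0.67 at day 14.

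Between the stiffnesses no difference of these genes passed adjustment, with 3 libraries in each group. Between 32 kPa and 0.2 kPa limma called 0 of the 79 genes in either direction, as it did for all genes (0.0%), with 0 of them at an unadjusted p under 0.05. edgeR and DESeq2 called 0 as well, with 2 and 6 at an unadjusted p under 0.05. The median difference was 0.22, against -0.01 over all genes, and 69 of the 79 genes had a positive value. Replicate 3 of the 32 kPa group stood apart, with a summed level of 8247 CPM below all 0.2 kPa libraries and 6.17% of reads on other short transcripts. Without it, 10 of the genes were called higher at 32 kPa and none lower, where 1.82% of all genes were higher and 2.75% lower. Groups did not overlap for 2 genes, Ndufa10 and Cox7a1 (9.23% of all genes).

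Other mitochondrial genes in culture are given here from lists chosen with earlier results known. The counts stand against 31.9% of all genes higher and 39.2% lower at 0.2 kPa. At 0.2 kPa, 73 of 78 mitochondrial ribosomal protein genes and 21 of 21 mitochondrial import genes rose, and 15 of 18 genes of the TCA cycle and pyruvate dehydrogenase rose while Ogdh fell. Of 35 assembly factors for complexes II to V, 24 rose and none fell, and of 15 for complex I, 7 rose and 1 fell. Among 17 regulators of mitochondrial biogenesis 10 rose and 4 fell. Ppargc1a, the coactivator known to drive respiratory genes, was at 2.54, 1.98 and 2.16 CPM in sham and 0.117 to 0.483 CPM in culture, and fell by 2.97 (SE 0.41, limma adjusted p = 6.6e-05) at 0.2 kPa. Esrra, a nuclear receptor that acts with it, rose by 1.52, while the related Esrrg fell by 3.86.

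Outside the mitochondria, 83 of 84 cytosolic ribosomal protein genes, 35 of 39 proteasome genes and 20 of 20 cell cycle genes rose at 0.2 kPa. Again 31.9% of all genes were higher and 39.2% lower. Mki67, a proliferation marker, was at 2.84 to 6.58 CPM in sham and 108 to 193 CPM in culture. Among 20 genes of glycolysis and lactate handling, 12 rose and 4 fell. All 10 mesenchyme markers fell, including Col1a1, which was at 5549 to 8935 CPM in sham and 1374 to 1992 CPM in culture.

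ATAC-seq, which reads chromatin accessibility, went the other way at these promoters in culture. In the authors' deposited table of regions that differ between 0.2 kPa and sham, a region of lower accessibility overlapped the promoter window of 64 of the 69 genes (92.8%) and a region of higher accessibility overlapped none. A lower region overlapped the window of 71.0% of the 13402 other genes that were tested in RNA, and of 40.6% of all 27025 genes with a window. Higher regions were rare at all promoters, at 0.231% of the other tested genes and 0.211% of all genes with a window. None among the 69 genes is near those shares. At 32 kPa the authors' deposited table gave 65 of 69 genes lower (94.2%), against 70.8% of the other tested genes. It gave 0 of the 69 higher, against 0.88% of the other tested genes. Of all 47475 regions in the authors' deposited table for 0.2 kPa, 5725 were higher in culture.

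The CD1 folds in the authors' deposited tables are sham over culture, and their sign was turned here so that a negative value is lower in culture. Read this way, the authors' deposited table gave log2 folds of -3.68 to -1.15 at these promoters at 0.2 kPa, with a median of -2.67. The median over all its regions was -2.22. Those include regions outside promoters and regions higher in culture, so the 2 medians are not a like comparison. No median was taken for the promoters of other genes. For the promoters printed above, the authors' deposited table gave -2.93 at Sdha, -3.10 at Atp5g2, -3.49 at Cox6a1 and -2.97 at Cox5a. Sdha, whose RNA was not called, and Cox5a, whose RNA rose most in complex IV, thus had nearly the same listed fold in accessibility. Cox7c, whose RNA rose by 2.41, had the smallest fold, -1.15 in the authors' deposited table. Among genes with a window whose RNA rose at 0.2 kPa, 56 of 59 were in the lower list, as were 4 of the 5 whose RNA fell. The tables hold only regions past the authors' thresholds, so a gene left out has no value.

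RNA was also compared between genes with and without a motif match in the 150 bases before the start. At 0.2 kPa the 13 genes with an NRF1 match had a median log2 fold change of 1.25 and the 55 without had 1.26. The 10 genes with an ETS match had 1.33 and the 58 without had 1.23. For NRF1 the medians were 1.30 with and 1.45 without at 32 kPa, and 0.48 with and 0.53 without at day 14. The 2 genes with a YY1 match had 0.06 at day 14 and the 67 without had 0.51. These medians are descriptions with no test.

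**Figure D4:**
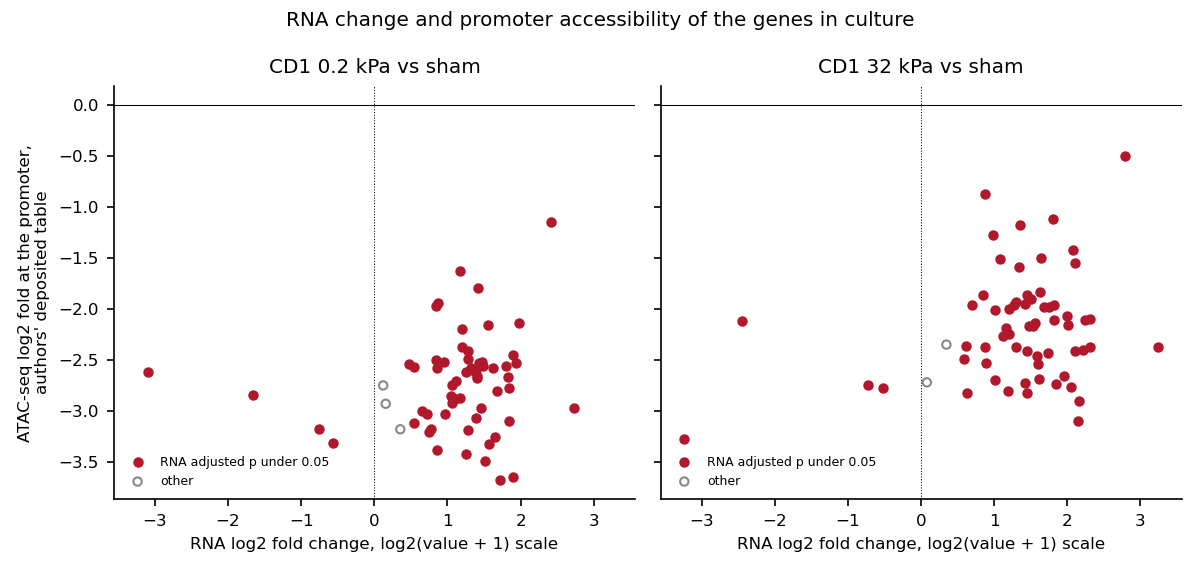
RNA log2 fold change (x axis) against the ATAC-seq log2 fold of the region at the promoter from the authors' deposited table, sign turned to culture over sham (y axis), 1 point per nuclear OXPHOS gene listed there. Every point lies below 0 in accessibility, from -3.68 to -1.15 at 0.2 kPa and from -3.28 to -0.50 at 32 kPa, while most points lie to the right of 0 in RNA.

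After bleomycin the called genes of the respiratory chain were higher at day 14, and none was called at day 56 against sham. At day 14, 17 of the 80 genes tested rose against sham and none fell, where 9.54% of all genes were higher and 6.35% lower. The median log2 fold change was 0.52, against 0.05 over all genes. The summed level was 7136, 5966, 4801 and 5722 CPM in sham and 7618, 8211, 7179 and 7025 CPM at day 14. The highest sham library overlapped the day 14 range. Groups did not overlap for 38 of the 80 genes (26.1% of all genes). The count moved with the libraries in the fit. Without sham replicate 3 (7.66% of all genes higher) or day 14 replicate 2 (6.3%) 10 genes rose. Without sham replicate 2 (7.45%) 11 rose, and without sham replicate 1 (9.09%) 38 rose. In a fit of sham and day 14 alone 36 rose and 1 fell, where 12.8% of all genes were higher and 8.81% lower. Without the 4 libraries with fewer genes 64 rose with a median of 0.72, where 14.6% of all genes were higher, with a median of -0.02. The cause was not tested.

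At day 14, complex III had 5 of its 8 genes called higher, complex IV 5 of 16, complex I 4 of 35, complex V 3 of 15 and complex II none of 4. The share of complex I genes was near that of all genes (9.54%). Cox5a was at 29.9, 36.8, 22.4 and 29.9 CPM in sham and 74.0, 84.7, 70.6 and 71.8 CPM at day 14, with every day 14 library above every sham library. It rose by 1.40 (SE 0.25, limma adjusted p = 0.0015). Uqcrq was at 38.3, 28.1, 19.0 and 25.5 CPM in sham and 59.7, 71.7, 64.6 and 60.7 CPM at day 14, again without overlap. It rose by 1.29 (SE 0.22, limma adjusted p = 0.0012).

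Cox7c and Ndufa4 of complex IV rose by 1.19 and 1.17 at day 14, Ndufa3 of complex I by 1.21 and Atp5l, a membrane subunit of complex V, by 1.18. Atp5g1 and Atp5g3 of the c ring rose by 0.91 and 0.80, and Uqcrc1 by 0.46. Core complex I was not called in any of its 7 genes, with a median of 0.21. Sdha was at 361, 427, 436 and 442 CPM in sham and 367, 363, 319 and 333 CPM at day 14, a difference of -0.23 (SE 0.11, limma adjusted p = 0.21). For Atp5a1, the alpha subunit of complex V, the difference was 0.09 (SE 0.14, limma adjusted p = 0.73). The 46 nuclear OXPHOS genes under 1000 bases had a median of 0.62, the 25 of 1000 to 2000 bases 0.38, and the 6 of 2000 to 4000 bases 0.22, against 0.23, 0.15 and 0.04 for other genes of the same lengths. The 2 genes of 4000 bases or more by longest annotated transcript, Atp5g1 and Ndufb2, had a median of 0.72, against -0.02.

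The share of reads on other short transcripts was 4.05, 3.29, 2.46 and 3.01% in C57 sham and 4.19, 4.0, 3.82 and 3.73% at day 14, so these groups overlap. With this share as a term, 18 of the 80 genes were higher at day 14 and 5 lower, with a median of 0.20. Over all genes that fit gave 12.4% higher and 7.2% lower, with a median of 0.15. Leukocyte markers summed to 327 to 490 CPM in sham and 770 to 2506 CPM at day 14. Brown adipocyte markers summed to 39.0 to 46.7 CPM in sham, 84.3 to 117 CPM at day 14 and 34.7 to 48.3 CPM at day 56. Of the 9 brown adipocyte markers tested, only 2, Fabp4 and Dio2, were called higher at day 14 and none lower. The median log2 fold change of that list was -0.58. The list holds Cox8b and Cox7a1, which are also nuclear OXPHOS genes. The part of these cell types in the rise was not tested. Mesenchyme markers summed to 33192 to 46028 CPM in sham and 94342 to 115363 CPM at day 14, but the list was split. Of the 10 markers 4 were higher, led by Fn1 and Col1a1, and 3 were lower, led by Tcf21 and Dcn. Their median log2 fold change was 0.33. The mtDNA-encoded subunits summed to 1687, 1713, 1090 and 1894 CPM in sham and 2099, 2700, 2035 and 2072 CPM at day 14. Of the 13, 3 were called higher. In that fit, which had no short-transcript term, 9.54% of all genes were higher and 6.35% lower.

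For day 56 against sham, limma called 0 of the 80 genes against sham, with 0 at an unadjusted p under 0.05, where 0.0% of all genes were higher and 0.00473% lower. edgeR and DESeq2 also called 0, each with 1 gene at an unadjusted p under 0.05. The groups overlapped for all 80 genes (2.56% of all genes did not overlap), and the median difference was 0.12. That median was 0.01 without sham replicate 3, 0.29 without sham replicate 1 and -0.05 without day 56 replicate 2. The summed level was 5556, 9009, 6635 and 5231 CPM at day 56, and replicate 2, the library with the fewest reads (14288605), was above every other C57 library. Replicate 2 also had 5.06% of its reads on other short transcripts, against 2.86, 3.77 and 2.69% in the other 3.

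Against day 14, 11 genes were lower at day 56 and 1 was higher, where 8.48% of all genes were lower and 5.7% higher. With the values as deposited those shares were 14.4% and 3.67%, and with total read scaling 6.58% and 7.45%. Groups did not overlap for 12 of the 80 genes (20.2% of all genes). This comparison shares the day 14 libraries with the one above. Uqcrq was at 25.5, 46.4, 34.1 and 25.3 CPM at day 56, each below every day 14 library, and fell by 1.13 (SE 0.22, limma adjusted p = 0.0036). Cox5a fell by 1.08, Cox7c by 1.07, Ndufa3 and Atp5l by 0.95 each, and Atp5g1 by 0.82. Atp5b, Atp5g3, Atp5o, Ndufa1 and Uqcrc1 fell by 0.43 to 0.78. Atp5s was at 16.7, 9.82, 11.6 and 10.5 CPM at day 14 and 23.4, 41.2, 25.2 and 16.8 CPM at day 56, and rose by 0.97 (SE 0.25, limma adjusted p = 0.020). Without day 56 replicate 2, 32 genes were lower (9.26% of all genes), and without day 14 replicate 2 only 3 were (5.23%). Without the 4 libraries with fewer genes 62 were lower (13.5% of all genes).

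At day 14, cytosolic ribosomal proteins had 31 of 84 genes higher, the proteasome 19 of 38, mitochondrial import 9 of 21 and mitochondrial ribosomal proteins 9 of 77, the last near the 9.54% of all genes higher. Glycolysis and lactate genes had 9 of 20 higher and 3 lower, and 18 of 20 cell cycle genes rose. Ppargc1a was at 4.52, 2.25, 3.68 and 4.65 CPM in sham and 1.15, 1.81, 0.837 and 1.33 CPM at day 14, and fell by 1.49 (SE 0.44, limma adjusted p = 0.034). The authors' deposited tables for day 14 and day 56 listed a region at the promoter of none of the 69 genes in any of the 3 C57 comparisons, where 1.95% of the other tested genes had a higher region and 0.581% a lower one at day 14.

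Pairs of genes that can take the same place in a complex were compared as the share of 1 gene in the reads of both, which removes what moves both alike. Of the 10 pairs in 6 comparisons (60 exact two-sided permutation tests), none passed adjustment, and the smallest p possible is 0.1 for 3 against 3 libraries and 0.0286 for 4 against 4. Ndufa4l2 is a hypoxia-induced relative of Ndufa4 and, like Cox4i2, the form of Cox4 best known from lung, lies outside the name rule. Ndufa4l2 made up 33.7, 27.9 and 35.8% of the reads of its pair in CD1 sham, 0.111, 0.0562 and 0.309% at 0.2 kPa, and 0.0495, 0.0135 and 0.0209% at 32 kPa. In C57 it made up 49.8, 40.0, 37.3 and 40.3% in sham, 18.1, 17.9, 25.8 and 20.9% at day 14, and 26.5, 24.9, 28.9 and 30.2% at day 56. Sham was the highest group in both strains, with no overlap (exact permutation p of the log2 ratios = 0.1 and 0.0286, adjusted 0.18 and 0.17 for 0.2 kPa and day 14).

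Cox4i2 made up 2.28, 1.76 and 2.10% of Cox4 reads in CD1 sham and 0.0327 to 0.120% in culture. In C57 it was 4.48, 7.69, 5.08 and 9.05% in sham, 1.40, 1.32, 0.293 and 1.23% at day 14, and 4.40, 4.87, 4.77 and 2.85% at day 56. Cox6b2 made up 11.4, 12.9 and 14.6% of Cox6b reads in CD1 sham and 0.276 to 0.648% in culture. In C57 it was 29.0, 22.5, 18.7 and 23.7% in sham, 13.8, 9.67, 10.8 and 12.9% at day 14, and 30.6, 28.4, 28.3 and 18.6% at day 56. Both shares were lower at day 14 than in every sham and every day 56 library. Cox4i2 and Ndufa4l2 are also in the list of smooth muscle and pericyte markers used here. That list summed to 2330 to 2883 CPM in C57 sham and 2681 to 3341 CPM at day 14. Of its 17 genes 4 were higher and 4 lower there, against 9.54% and 6.35% of all genes. Among the called markers Cspg4 and Actg2 rose most, and Higd1b and Cox4i2 fell most. The median log2 fold change of the list was -0.22. The part of cell types in these shares was not tested.

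Cox7a2l, which helps complexes III and IV join into supercomplexes, made up 68.4, 63.5 and 64.9% of the reads of its pair with Cox7a2 in CD1 sham, 49.4, 49.9 and 54.2% at 0.2 kPa, and 53.6, 50.8 and 52.4% at 32 kPa. The cultured libraries lay below sham in all 6 cases, although both genes were called higher in culture. The longest annotated transcripts of the pair differ in length, 1129 bases for Cox7a2l and 659 for Cox7a2. A pair share does not remove what moves short and long transcripts differently, and its part here was not tested. The c-ring gene Atp5g1 made up 48.8 to 52.2% of its pair with Atp5g2 in CD1 sham and 47.6 to 52.6% in culture. In C57 it made up 63.7, 69.3, 74.0 and 70.1% in sham and 74.2 to 76.1% at day 14. The Cox7a2l share was 43.3, 46.8, 53.6 and 53.1% in C57 sham. Within C57 sham both shares were lowest in replicate 1, which had the highest share of reads on other short transcripts.

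**Figure D5:**
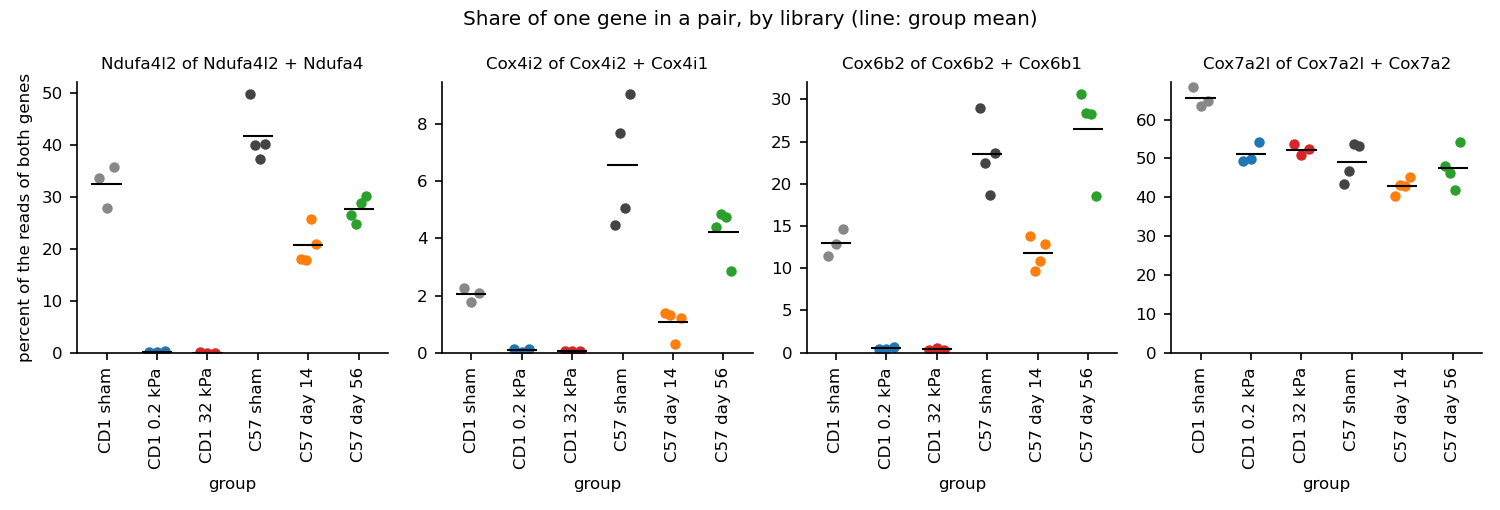
Percent of the reads of a gene pair that fell on Ndufa4l2, Cox4i2, Cox6b2 or Cox7a2l (panels), by group (x axis), with 1 point per library and a line at the group mean. Ndufa4l2 falls from 27.9 to 35.8% in CD1 sham to under 0.31% in all cultured libraries and is lower at day 14 than in C57 sham.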

How the data were processed

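RNA-seq and ATAC-seq of 42 samples were deposited, and the 21 RNA libraries and the authors' lists of differential ATAC regions were used. Per the submitters' processing notes, HISAT2, featureCounts, DESeq2, MACS2, DiffBind and HOMER were used with build mm10; neither tool versions nor the strand setting is given in the sources used here. Reads of overlapping or antisense genes therefore cannot be told apart. The RNA values are deposited as a signal: read counts divided by 1 factor per library. Whole reads were recovered from them (100% of values within 0.05 of a whole read). In the ATAC lists the deposited fold and concentration columns are log2 values and the FDR column holds adjusted p-values, per the file headers.

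Values were rescaled by median of ratios, filtered at a mean of 1, and fitted with limma 3.58.1 (R 4.3.3) as log2(value + 1), 1 fit per table over its 3 groups. edgeR 4.0.16 and DESeq2 1.42.0 on the recovered reads, other scalings, filters and pseudocounts, a replicate block and leaving out libraries were alternatives. On the recovered reads edgeR called 5750 genes higher and 7057 lower at 0.2 kPa. CPM leave out entries with no symbol (2.13 to 4.77% of CD1 reads). Transcript lengths are from GENCODE M21 and promoters from RefSeq, both on GRCm38. Reads of near-identical copies, such as pseudogenes, may be split.

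Genes named are up to 3 called genes per complex and direction with the largest change, the isoform pairs, the 3 highest by CPM, up to 2 called genes per list and direction, Col1a1 and Mki67; others (Sdha, Ndufv1, Ndufa6, Ndufa13, Uqcrc1 and those printed for a role) were chosen after their values were seen. The members and lists were chosen with earlier results of these data known.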

Additional observations from a re-analysis of the deposited data

Results flagged for a closer look

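Among 75 groups of 4 C57 libraries examined, 4 had 1 library far from the other 3, where chance flags about 1 in 20. The summed mtDNA-encoded subunits at day 14 reached 2700 CPM in replicate 2, with a median of 2086 CPM over the group. Atp5g3 at day 14 reached 202 CPM in replicate 2, against a median of 171 CPM. Atp5o at day 56 reached 101 CPM in replicate 2, against a median of 51.8 CPM, and Ndufa1 at day 56 reached 93.4 CPM in replicate 2, against a median of 49.6 CPM.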

How the results depend on the processing

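In culture, the counts of nuclear OXPHOS genes called stayed within 1.5 times the reported ones under every alternative but 1, with 66 to 70 higher and 4 to 5 lower at 0.2 kPa, and 69 to 71 higher and 5 lower at 32 kPa, when 1 library was left out. The exception was the short-transcript share as a term, chosen after seeing the data: 7 higher and 15 lower at 0.2 kPa, 4 higher and 11 lower at 32 kPa. With that term the medians over all 79 OXPHOS genes were -0.29 and -0.23. Among the 28 genes chosen by the naming rule, 11 reversed at 0.2 kPa: Ndufb6 -0.43, Ndufa3 -0.021, Sdhc -0.37, Sdhb -0.34, Uqcrq -0.12, Uqcr11 -0.25, Atp5g2 -0.10, Atp5g1 -0.35, Cox7a2l -0.073, Cox6a1 -1.09 and Cox8a -1.03. At 32 kPa 9 of 28 did: Ndufb6 -0.33, Ndufc2 -0.56, Sdhc -0.32, Sdhb -0.26, Uqcr11 -0.12, Cox8a -0.83, Atp5g2 -0.036, Atp5g1 -0.23 and Cox6a1 -0.95. Between stiffnesses, leaving out 1 library gave 0 to 10 higher and 0 lower.

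At day 14, 36 rose with 2 groups in the fit (12.8% of all genes) and 64 without the 4 libraries with fewer genes (14.6%). With 2 groups and with DESeq2 1 fell, and with the short-transcript term 5 fell. Leaving out 1 library gave 10 to 38 higher (38 without sham replicate 1, 10 or 11 without sham replicate 2 or 3 or day 14 replicate 2) and 0 to 1 lower. Over all genes the share higher was then 6.3 to 9.09%. Between day 56 and day 14, 31 were lower with values as deposited (14.4% of all genes) and 4 with total read scaling (6.58%). With edgeR (5.83%) and with 2 groups (7.96%) 7 were lower. With the short-transcript term 23 were lower (13.6%), and without the 4 libraries with fewer genes 62 (13.5%). The gene higher at day 56 became 0 as deposited and without those 4 libraries, 2 with total read scaling and 4 with the short-transcript term. Leaving out 1 library gave 3 to 32 lower and 0 to 1 higher. It was 32 lower without day 56 replicate 2 (9.26% of all genes). Without any 1 of the 4 day 14 libraries or day 56 replicate 1 or 4 it was 3 to 7 (5.23 to 8.88% of all genes). The cause was not tested.

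Replicate numbers showed no visible pairing of libraries. Correlations of same-numbered libraries ran from -0.16 to 0.07 in CD1 and from -0.16 to 0.12 in C57. In CD1 1 of 9 and in C57 3 of 12 libraries correlated best with their own number. These use deviations from means of 3 or 4 libraries, and the labels do not speak of pairing, so it stays open. With a replicate block the counts were 69 and 5 at 0.2 kPa, 70 and 5 at 32 kPa, 14 and 0 at day 14, 0 at day 56 against sham and 1 higher and 9 lower for day 56 against day 14. Depth limits Cox8b, Cox7a1, Cox6a2 and Cox7b2, which had few reads. Adding 5 in place of 0.5 before the log2 isoform ratios changed the sign of 2 of the 60 differences, Cox6a2 and Cox7a1 between day 56 and day 14. No pair passed adjustment either way. Total read scaling moved the median of all genes at 0.2 kPa from -0.22 to -0.03 and that of the OXPHOS genes from 1.20 to 1.40. The values as deposited moved the OXPHOS median between day 56 and sham from 0.12 to -0.09.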
